A study of Sus scrofa with 6 samples.

Results

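The enzymes of the tricarboxylic acid cycle were followed on Agilent arrays in 2 pig muscles, the longissimus dorsi muscle (LDM) and the psoas major muscle (PMM). The study treats LDM as a glycolytic muscle and PMM as an oxidative one, and the question here was whether the signal of the cycle's enzymes differed between them. Total RNA came from 3 female Landrace pigs without a shared recent pedigree, which were raised on one diet and slaughtered at 210 days of age after a fast. The labels name no treatment and no altered gene, and each muscle gave 3 arrays with 1 Cy3-labelled sample on each. Both muscles were taken from each pig, although neither the labels nor the study's methods tie the replicate numbers to individual pigs. The labels' account of RNA extraction mentions adipose tissue, whereas their tissue field gives muscle.

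The probes were found by name or description. A probe was a member when its name was CS, IDH2, IDH3A, OGDH, SUCLG1, SDHA, SDHB, FH or MDH2, when its description held one of these symbols in round brackets, or when its description held the name of one of 6 enzymes of the cycle. Of the 43603 probes besides the controls, 34 met this rule. Of these, 26 could be placed on 12 genes, 10 of which are among the 3529 genes named on the array. Among the 34 probes, 17 carried the name or accession of a pig gene, 9 were placed on a gene only by the description of the transcript they were designed on, 1 was described as a malate dehydrogenase with no gene given, 2 carried the label FH, and 5 had descriptions of bacterial or archaeal enzymes. No probe was found for OGDH.

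In the tricarboxylic acid cycle, which runs in the mitochondrial matrix, acetyl-CoA is joined to oxaloacetate and oxidised stepwise to carbon dioxide, and the electrons are passed as NADH and reduced flavin to the respiratory chain. Citrate synthase is widely used as a measure of mitochondrial content in muscle, and succinate dehydrogenase is the enzyme stained to tell oxidative from glycolytic fibres. Muscles rich in slow, oxidative fibres hold more mitochondria than muscles rich in fast, glycolytic fibres.

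Every value below is the log2 of the processed spot intensity minus the log2 of the 75th percentile of the same array, so a value of 0 is the 75th percentile, and a difference of 1 between the muscles is a doubling. Values of different probes are not set against each other, since probes differ in brightness for reasons of their own. The 75th percentile lay between 595 and 883 intensity units over the 6 arrays, 58.4% to 72.3% of the spots were well above the background, and no spot was saturated. Arrays of equal replicate number resembled each other more (Pearson r 0.974 to 0.992 between the muscles) than arrays of the same muscle (0.941 to 0.974), with n = 6 arrays. Each replicate number was also scanned on its own day. Both arrays of replicate 2 shared a slide, as did those of replicate 3, whereas those of replicate 1 lay on different slides. With 3 arrays per muscle the precision is limited by their number, and in whole muscle a larger share of mitochondria-rich fibres cannot be told apart from more RNA per fibre.

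The signal of the cycle enzymes was higher in PMM than in LDM on average. Here and below, the brightest probe of a gene was picked among its named probes, and probes placed by description were left out of that choice. For SDHA and IDH2 a described probe was brighter than the one used. By the brightest named probe of each gene, the difference exceeded the SD over the 3 arrays of each muscle for SDHB, SDHD and MDH1. It was below the SD of both muscles for CS, IDH3A, SUCLG1 and MDH2, and between the SDs for IDH2, IDH3B and SDHA. All 23 tested probes among the named and described ones had a positive difference of PMM minus LDM, from 0.035 to 1.08 log2 units with a median of 0.40, where 44.1% of all 25826 tested probes were above 0. Every one of the 23 was flagged as well above background in LDM on all 3 arrays, so none was tested for its signal in PMM alone. Taken gene by gene, with the brightest probe for each, the median difference over 10 genes was 0.49 log2 units, or 1.41-fold, against -0.01 over the 2893 genes tested. Within replicate 1 that median was 0.75, within replicate 2 it was 0.42 and within replicate 3 it was 0.23, which are also the values within each scan day. Over all genes tested the medians fell in the same order, from 0.13 within replicate 1 to 0.04 within replicate 2 and -0.20 within replicate 3. Only in replicate 1 were the muscles on different slides, and the part of the slide in its difference was not tested. Without the array of PMM replicate 1 the median over the 10 genes was 0.095 in place of 0.49, and CS, IDH3A and SUCLG1 were then lower in PMM, at -0.11, -0.37 and -0.07. The differences of IDH2 (0.073), IDH3B (0.12), SDHA (0.19), SDHB (0.27), SDHD (0.21), MDH2 (0.057) and MDH1 (0.65) then stayed above 0, each below its value over all 6 arrays. That comparison was unbalanced, since it kept LDM replicate 1, the highest LDM array for each of the 10 genes. Within replicates 2 and 3 the differences were 0.33 and -0.09 for CS, 0.18 and -0.03 for IDH3A, and 0.23 and -0.09 for SUCLG1.

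limma called none of the 23 probes in the comparison without a block (adjusted p = 1.0 for all), where 0.0116% of all tested probes were called higher in PMM and 0.0194% lower. At an unadjusted p under 0.05, 1 of the 23 passed, the probe for MDH1, against 1.64% of all probes that passed in the same direction. With the replicate number as a block, limma again called 0 of the 23 after adjustment (0.031% of all probes were called higher and 0.0348% lower) and the lowest adjusted p was 0.216, while 9 passed at an unadjusted p under 0.05, against 6.21% of all probes. Of the 22 probes with a value on all 6 arrays, 14 were higher in PMM in all 3 replicates, against 16.4% of all probes. In 1 of the 22, all 3 PMM values lay above all 3 LDM values, against 3.07% of all probes, and the same held for the brightest probe of 2 of the 10 genes, SDHD and MDH1, against 4.16% of all genes.

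**Figure D1:**
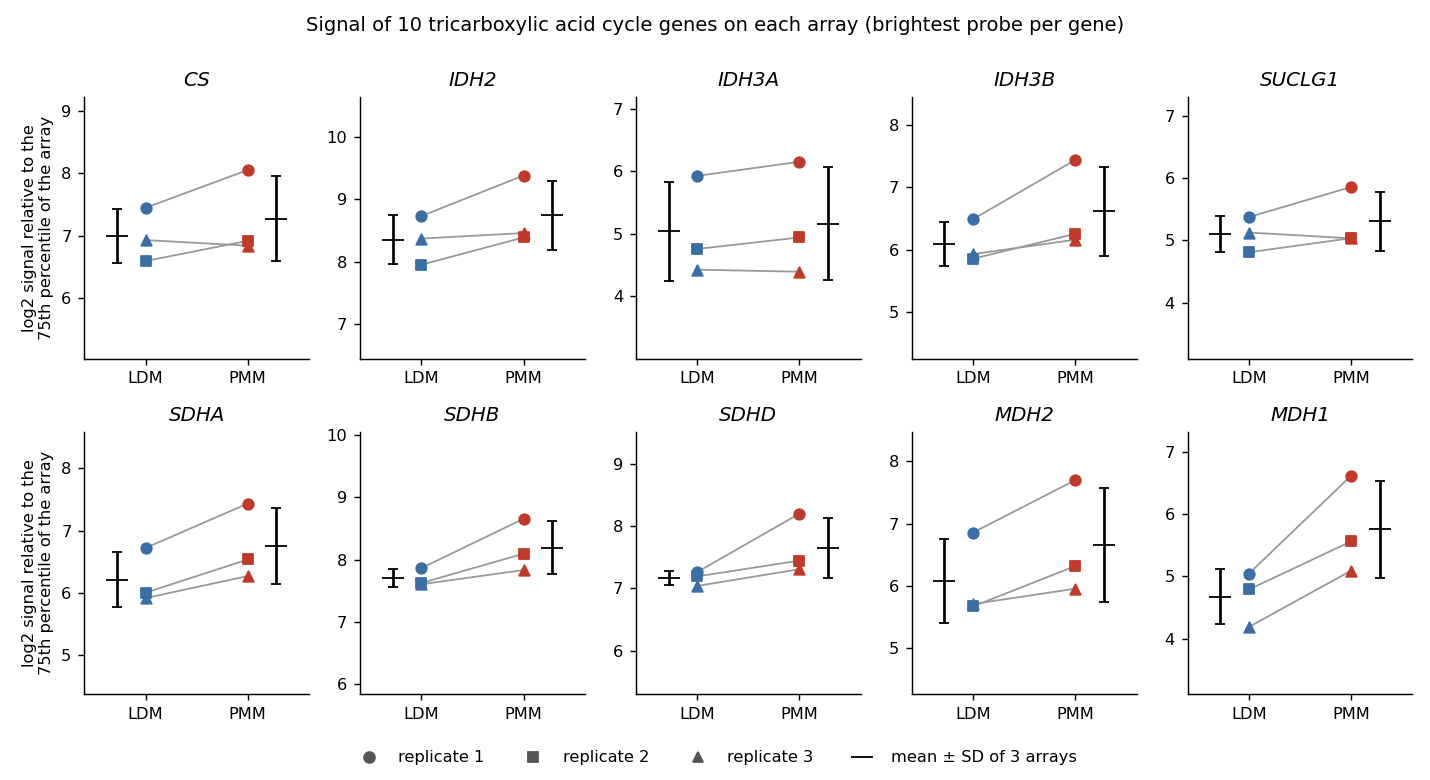
Signal of each of the 10 genes on each array, as log2 relative to the 75th percentile of the array, for the brightest named probe of the gene; grey lines join arrays of equal replicate number, and the black bars are the mean ± SD of 3 arrays. Most lines rise from LDM to PMM, replicate 1 is the highest array of both muscles in every panel, and the muscles are apart without overlap for SDHD and MDH1 only. Each panel spans the same number of log2 units, with its own centre.

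Citrate synthase (CS) catalyses the entry step of the cycle. The array carried 4 probes with the accession of pig CS, each of them bright on all arrays, and they are printed here because they are independent measurements of one transcript that share no run of 8 or more bases.
CS A_72_P072591: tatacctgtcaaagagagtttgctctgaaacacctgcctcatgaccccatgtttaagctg
CS A_72_P124631: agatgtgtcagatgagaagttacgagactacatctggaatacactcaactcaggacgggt
CS A_72_P226122: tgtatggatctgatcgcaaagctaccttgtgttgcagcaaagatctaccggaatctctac
CS A_72_P436629: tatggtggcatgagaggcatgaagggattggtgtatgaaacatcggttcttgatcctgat

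The brightest of them, A_72_P072591, read 7.45, 6.59 and 6.93 in LDM and 8.05, 6.92 and 6.84 in PMM, in the order of the replicate numbers used throughout. PMM was higher in replicates 1 and 2 and lower in replicate 3, and the muscles overlapped. Its mean was 6.99 ± 0.43 in LDM and 7.27 ± 0.68 in PMM (SD, n = 3), a difference of 0.28 (SE 0.42). This SE and those printed below come from the fit without a block, and that of CS with the replicate block was 0.20. The probes A_72_P226122 and A_72_P436629 gave the same difference to within 0.01 log2 units (0.28 and 0.29), with replicate 3 again below 0. The probe A_72_P124631 gave 0.56 instead, with PMM higher in replicate 3 as well, by 0.51. Its gap to the other 3 probes was 0.27 to 0.28 log2 units, which 3 arrays against 3 cannot test at 0.05, since 0.1 is the smallest p that an exact permutation test can give there. Over the 6 arrays the 4 probes followed each other closely, with Pearson r from 0.908 to 0.998 (n = 6 arrays, which share their scaling).

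The CS probe found by description behaved otherwise. A_72_P261837 was designed on a pig transcript described by its likeness to dog citrate synthase. It read -1.36, -1.68 and -1.99 in the LDM replicates and -2.01, -1.43 and -1.47 in the PMM replicates, a difference of -0.65 in replicate 1 and positive ones in the others. Its mean difference of 0.035 was the smallest of the 23 probes, and it correlated with the 4 named probes at -0.344 to -0.099 over the 6 arrays. This was the pair with the widest gap among all probes of one gene, 0.53 log2 units between A_72_P124631 and A_72_P261837.

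Isocitrate dehydrogenase oxidises isocitrate, in an NADP-dependent form (IDH2, mitochondrial; IDH1, cytosolic) and in the NAD-dependent form of the cycle, built from IDH3A, IDH3B and a further subunit. For IDH2 the named probe read 8.73, 7.95 and 8.37 in the LDM replicates and 9.38, 8.39 and 8.46 in the PMM replicates. PMM was higher in each replicate, by 0.65, 0.44 and 0.09, and the muscles overlapped. The mean difference of 0.39 (SE 0.38) was met by those of 2 described probes, 0.39 and 0.40. Of these, A_72_P133321 shares 53 bases with the named probe and is not an independent measurement, whereas A_72_P116831 shares no more than 8 bases with either.
IDH2 A_72_P116831: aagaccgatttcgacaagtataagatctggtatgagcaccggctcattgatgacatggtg

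IDH3A, the catalytic subunit, had the smallest difference of the 10 genes. Its brighter probe read 5.93, 4.76 and 4.43 in the LDM replicates and 6.16, 4.94 and 4.39 in the PMM replicates, with a difference of 0.13 (SE 0.55), and the other probe gave 0.18. The spread between arrays of one muscle (SD 0.79 in LDM and 0.90 in PMM, n = 3) was several times the difference between the muscles. With the replicate block, the 95% interval of the IDH3A difference ran from -0.28 to 0.53 log2 units. The intervals of CS, IDH2 and SUCLG1 in that fit also included 0. Those of IDH3B, SDHA, SDHB, SDHD, MDH2 and MDH1 lay above 0, which makes 6 of the 10 genes, against 333 of the 2893 genes tested. Of these 6 only MDH1 was called after adjustment.

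IDH3B, a subunit of the same enzyme, showed a larger difference. A_72_P098771 read 6.49, 5.85 and 5.93 in the LDM replicates and 7.44, 6.26 and 6.16 in the PMM replicates, a difference of 0.53 (SE 0.42) with PMM higher by 0.95, 0.40 and 0.23. The second named probe gave 0.52, and the pair overlap on the transcript, as the 32 shared bases in capitals show.
IDH3B A_72_P098771: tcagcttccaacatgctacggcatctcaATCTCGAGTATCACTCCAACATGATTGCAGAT
IDH3B A_72_P165726: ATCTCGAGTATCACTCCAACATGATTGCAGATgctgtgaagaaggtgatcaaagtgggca
The remaining tested probe, A_72_P155876, placed on IDH3B by description, gave 0.39, with replicate 3 close to 0. The single probe described as cytosolic isocitrate dehydrogenase, IDH1, was well above the background on 1 LDM array and no PMM array and was not tested.

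Succinyl-CoA ligase makes the cycle's nucleotide triphosphate, and SUCLG1 encodes its alpha subunit. Its probe read 5.37, 4.81 and 5.12 in the LDM replicates and 5.85, 5.03 and 5.03 in the PMM replicates. The difference was 0.20 (SE 0.35), with replicate 3 at -0.09, and the muscles overlapped.

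Succinate dehydrogenase, complex II of the respiratory chain, links the cycle to electron transport, and 3 of its subunits were measured. SDHA carries the flavin and the active site, SDHB the iron-sulphur clusters, and SDHD is a membrane anchor. For SDHA and SDHB, 1 named probe each with a value on all 6 arrays is shown.
SDHA A_72_P380073: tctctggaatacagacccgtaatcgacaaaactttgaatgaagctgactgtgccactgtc
SDHB A_72_P178116: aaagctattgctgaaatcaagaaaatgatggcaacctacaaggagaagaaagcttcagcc

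The SDHA probe A_72_P380073 read 6.72, 6.0 and 5.92 in the LDM replicates and 7.43, 6.54 and 6.27 in the PMM replicates, a difference of 0.53 (SE 0.40). Each replicate was higher in PMM, by 0.71, 0.53 and 0.35, although PMM replicates 2 and 3 lay below LDM replicate 1. The described SDHA probe gave 0.50, and A_72_P161336 gave 0.63 from 5 arrays, since its spot on PMM replicate 3 was marked as an outlier and left out.

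For SDHB, A_72_P149166 read 7.86, 7.62 and 7.60 in the LDM replicates and 8.65, 8.09 and 7.83 in the PMM replicates. Only PMM replicate 3 lay within the range of LDM, and the difference was 0.50 (SE 0.32). The second named probe, A_72_P178116, gave 0.48 with PMM higher by 0.65, 0.54 and 0.24. A described SDHB probe was well above the background on 2 LDM arrays and 1 PMM array and was not tested.

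For SDHD the probe found by the rule, A_72_P177861, gave 0.40 with PMM higher by 0.74, 0.33 and 0.11. The muscles overlapped on it, with LDM replicate 1 at 6.77 and PMM replicates 2 and 3 at 6.70 and 6.51. A brighter SDHD probe, which the rule did not find, read 7.26, 7.19 and 7.04 in the LDM replicates and 8.20, 7.44 and 7.31 in the PMM replicates. There the 3 PMM values lay above the 3 LDM values, with a difference of 0.49 (SE 0.33, limma adjusted p = 0.999). Over all of their tested probes the 3 subunits of complex II had differences of 0.40 to 0.63, the highest from the SDHA probe with an outlier spot left out. The named probes of CS spanned 0.28 to 0.56, and its described probe gave 0.035.

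Malate dehydrogenase closes the cycle by remaking oxaloacetate in the mitochondrion (MDH2), and its cytosolic form (MDH1) works with it in the malate-aspartate shuttle, which carries reducing equivalents of glycolysis into the mitochondrion. MDH2 read 6.86, 5.67 and 5.71 in the LDM replicates and 7.70, 6.32 and 5.96 in the PMM replicates, a difference of 0.58 (SE 0.53), with PMM higher by 0.84, 0.65 and 0.25. A described MDH2 probe gave 0.45.

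MDH1 had the largest difference of the 10 genes. Its 1 probe is printed because the call discussed next rests on it alone.
MDH1 A_72_P303074: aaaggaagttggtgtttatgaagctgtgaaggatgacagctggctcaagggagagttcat
It read 5.04, 4.79 and 4.19 in the LDM replicates and 6.61, 5.56 and 5.09 in the PMM replicates, so every PMM value lay above every LDM value, the nearest by the gap between 5.04 and 5.09. The difference was 1.08 (SE 0.44), or 2.12-fold, and PMM was higher by 1.57, 0.77 and 0.90. In the gene comparison limma gave an unadjusted p of 0.040 and an adjusted p of 0.999 without a block. With the replicate block it called MDH1 (adjusted p = 0.0050, 95% interval 0.64 to 1.52), one of the 4.29% of genes called higher, and the only one of the 10. That call was lost when quantile normalization took the place of the 75th percentile in the fit with the block (adjusted p = 0.092), without replicate 1 (0.052) and without replicate 3 (0.16), and it was not made in the fit over probes (0.216). A probe described only as a fish malate dehydrogenase did not exceed the background flag on an array, nor did the probe described as rat iron-responsive element-binding protein 1.

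**Figure D2:**
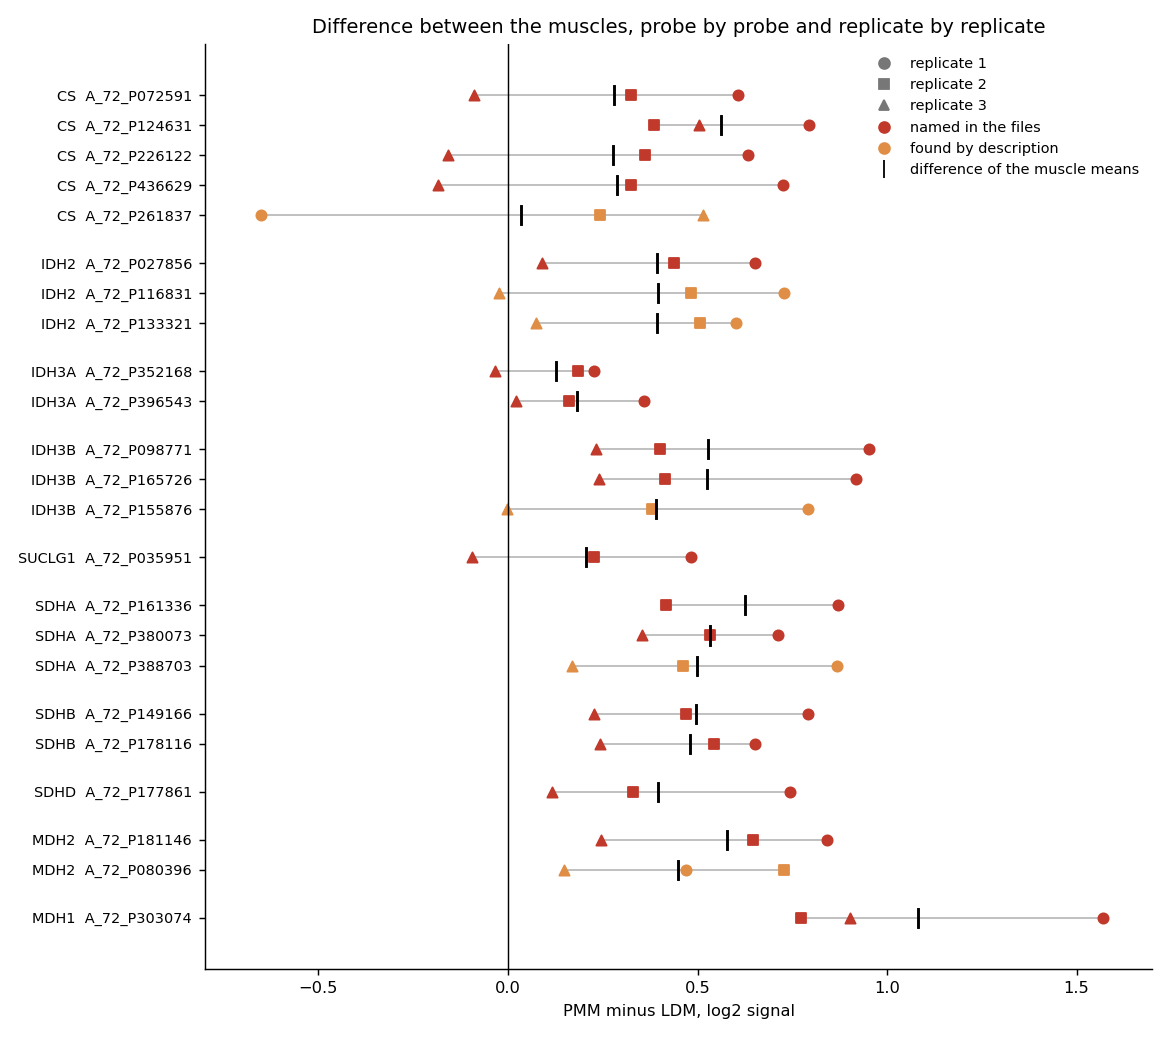
Difference of PMM minus LDM (log2 units) for each tested probe, with 1 symbol for each replicate number and a black bar for the difference of the muscle means; red probes are named in the files and orange ones were found by description. Among the 22 red and orange probes with all 3 replicates, replicate 1 lies farthest to the right in 20 and replicate 3 farthest to the left in 19.

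The replicates differed from each other in the same way in most of the 23 probes. Of the 22 probes with a value on all 6 arrays, replicate 1 gave the largest difference of PMM minus LDM in 20 and replicate 3 the smallest in 19. In 7 of the 22, replicate 3 was below 0. Taken gene by gene, replicate 1 was largest in all 10 genes and replicate 3 smallest in 8. Over the 2893 genes tested, replicate 1 was largest in 1620 and replicate 3 smallest in 2025, so much of this order was shared by genes outside the cycle. Replicate 1 was also the highest array within each muscle: all 17 named probes were highest in LDM replicate 1 among the LDM arrays and in PMM replicate 1 among the PMM arrays. Over the 10 genes, LDM replicate 1 exceeded the mean of LDM replicates 2 and 3 by a median of 0.58 log2 units, and PMM replicate 1 exceeded its 2 partners by 1.1. Over all genes tested the same medians were -0.05 in LDM and 0.14 in PMM. Both contrasts of replicate 1 with the other replicates were larger than the median of 0.49 between the muscles.

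The named probes of the 10 genes had a like pattern over the arrays. Each of the 17 named probes correlated with the mean of the other members' genes at 0.837 to 0.994 (Pearson r, n = 6 arrays, which share their scaling, given as a description). The other described probes reached 0.924 to 0.996, except the described CS probe at -0.22. Among 2876 named genes outside the rule, those most like the mean of the 10 genes were LMCD1 (r = 0.992), ECI2 (0.992), ACSL1 (0.991), TPM2 (0.991) and NUDT16 (0.990). ECI2 and ACSL1 encode enzymes of fatty acid breakdown and activation, TPM2 a tropomyosin of the sarcomere, and LMCD1 a LIM-domain protein of muscle. ECI2 was higher in PMM by 1.24, 0.49 and 0.17 in the 3 replicates and ACSL1 by 1.14, 0.79 and 0.07. LMCD1, TPM2 and NUDT16 had the same order of replicates. These genes were picked for their likeness to the cycle enzymes over these same arrays, so the shared order is not a separate result.

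**Figure D3:**
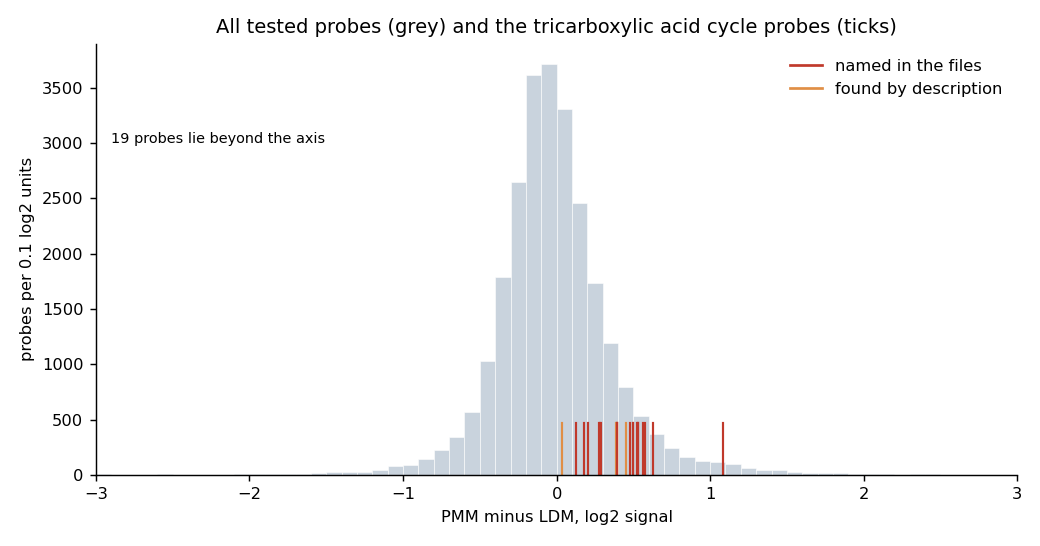
Number of tested probes per 0.1 log2 units of the difference of PMM minus LDM, over all 25826 tested probes (grey), with a tick for each of the 23 tested probes of the cycle enzymes; 19 probes lie beyond the axis. All ticks are right of 0, between 0.035 and 1.08, and most of them lie within the right flank of the grey distribution.

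**Figure D4:**
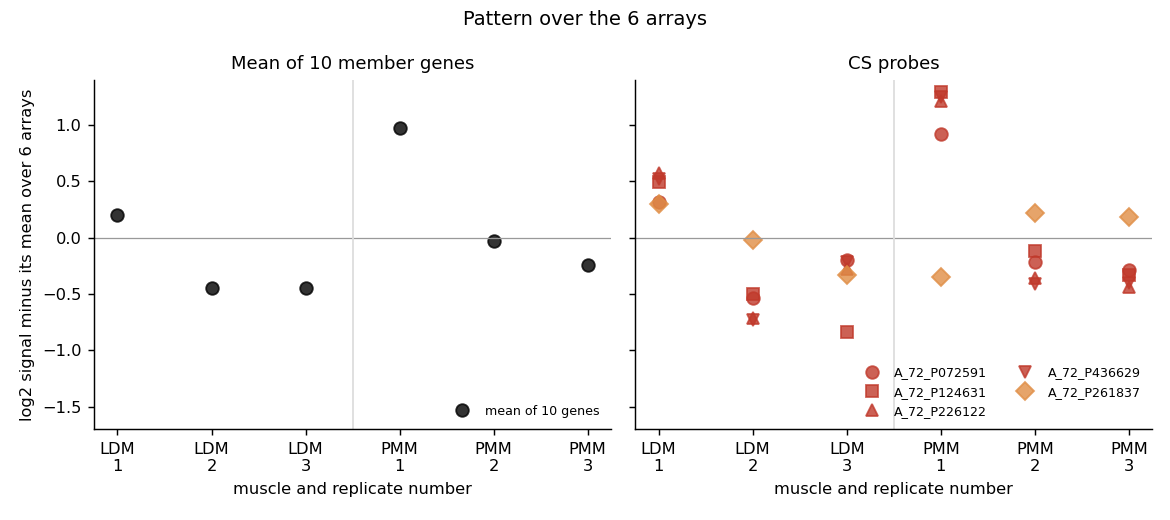
Log2 signal minus its mean over the 6 arrays, for the mean of the 10 genes (left) and the 5 CS probes (right), by muscle and replicate number. Replicate 1 is the highest array of each muscle on the left and for the 4 named CS probes, but not for the described CS probe in PMM.

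The remaining 5 probes have descriptions of microbial enzymes, including citrate synthase-like and fumarate hydratase-like ones, and cannot be placed on a pig gene from the files. Of these, 2 were tested, with differences of -0.23 and 0.15, and 3 were too dim.

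Cycle enzymes that the rule did not find had differences of the same sign. Of 6 such genes 4 had a tested probe, and all 4 were higher in PMM on average, with a median of 0.51 log2 units, and none was called (limma adjusted p from 0.132 with the replicate block). DLST and DLD, subunits of the 2-oxoglutarate dehydrogenase complex to which OGDH also belongs, gave 0.52 each. The beta subunits of succinyl-CoA ligase gave 0.51 (SUCLG2) and 0.29 (SUCLA2).

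Genes that feed or drain the cycle did not share one direction. Of 14 genes for the entry of carbon 4 were tested, with a median of -0.07. Pyruvate carboxylase (PC), which makes oxaloacetate from pyruvate, had differences of -0.57, -0.85 and -1.19 in the 3 replicates, with a mean of -0.87, and was called lower with the block (adjusted p = 0.013; 2.66% of genes were called lower) but not without it (0.999). PDK3, a kinase that inhibits pyruvate dehydrogenase, had a difference of -0.56, MPC2, part of the mitochondrial pyruvate carrier, 0.58, and DLAT, a subunit of pyruvate dehydrogenase, 0.41, and none of these was called in either fit.

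Of 19 genes for side reactions and carriers 6 were tested, with a median of -0.01. GOT1, the cytosolic aspartate aminotransferase of the malate-aspartate shuttle, was higher in PMM by 1.59, 1.03 and 1.0, a difference of 1.21, and was called with the block (adjusted p = 0.0020) but not without it (0.999). Its mitochondrial partner GOT2 had a difference of 0.39 and was not called. ME1 had a difference of -0.34, PCK2 -0.28 and GLUD1 -0.06, with no call.

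Among regulators of mitochondrial genes, 3 of 9 were tested. PPARGC1A, a coactivator that drives mitochondrial biogenesis, had a difference of 0.90, its 3 PMM values lay above its 3 LDM values, and it was called with the block (adjusted p = 0.012) but not without it (0.999). PPARA gave 0.32 and TFAM, which maintains mitochondrial DNA, 0.22, and neither was called. In the fit with the block, the calls of GOT1, PC and PPARGC1A were lost under quantile normalization (adjusted p = 0.085, 0.099 and 0.098) and without replicate 3 (0.15, 0.17 and 0.17). That of PC was also lost without replicate 2 (0.19), and that of PPARGC1A without replicate 1 (0.15) and without replicate 2 (0.065).

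**Figure D5:**
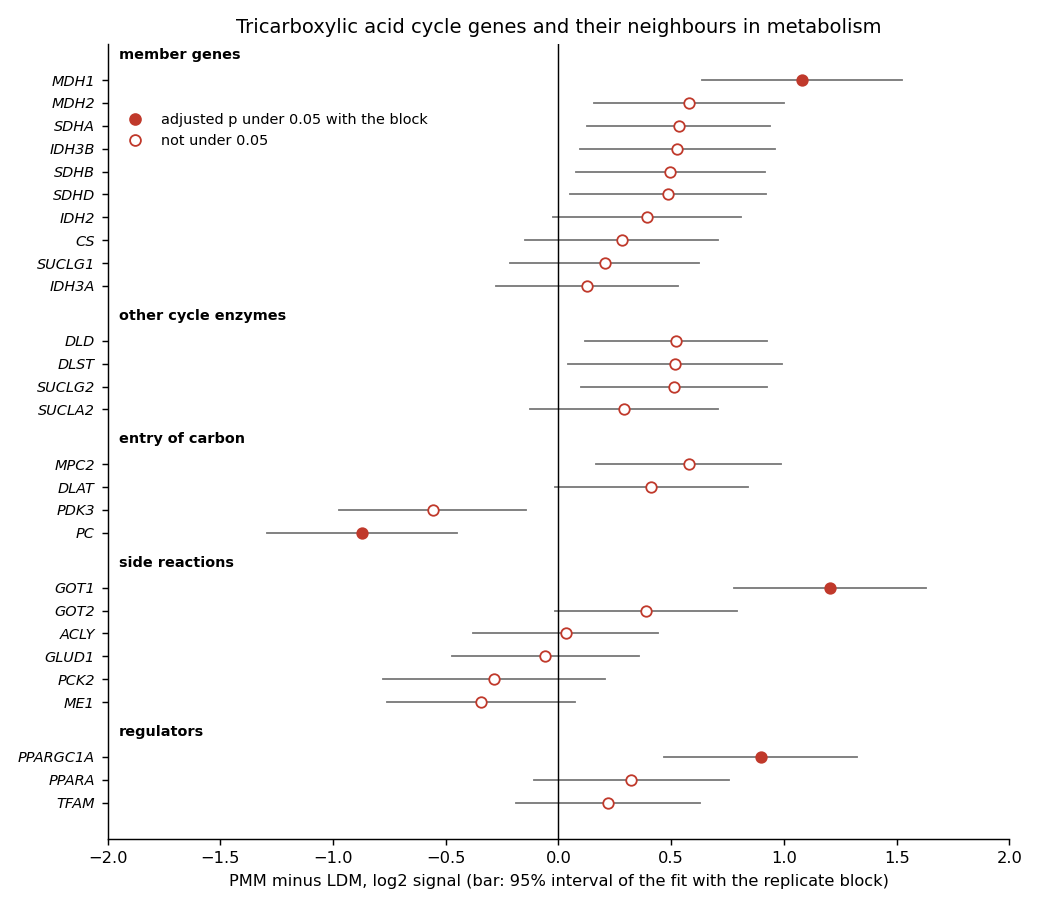
Difference of PMM minus LDM (log2 units) for the 10 genes and for the tested genes around the cycle, with the 95% interval of the fit with the replicate block as a bar; filled circles had an adjusted p under 0.05 in that fit. All cycle enzymes lie right of 0, with only MDH1 filled among them, while PC is filled on the left.

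Markers of cell and fibre types were followed on the same arrays, and limma without a block called none of them. With the replicate block limma called 4.29% of all genes higher in PMM and 2.66% lower, the shares beside which the calls below stand. Skeletal muscle markers exceeded the background on each array, 12 of 12. Their median difference was 0.14, and limma with the block called 1 of them higher, MB (myoglobin), at 1.47 (adjusted p = 0.0031). All 7 tested of 9 slow fibre markers were higher in PMM on average, with a median of 0.61, and their mean level ran from 6.82 to 7.0 over the LDM arrays and from 7.33 to 7.98 over the PMM arrays. With the block 3 of these were called higher. The 8 tested fast fibre markers had a median of 0.04, and none was called with the block. All 6 endothelial markers were higher in PMM on average, with a median of 0.34 and mean levels from 1.41 to 2.90 in LDM and from 2.21 to 3.00 in PMM, and 1 was called with the block. The 10 adipocyte markers had a median of -0.48, with mean levels from 1.56 to 2.48 in LDM and from 1.09 to 2.34 in PMM, 9 of them exceeded the background on each of the 6 arrays, and with the block 3 were called lower and 1 higher. The 1 tested erythrocyte marker, HBE1, differed by 0.89 (adjusted p = 0.022 with the block). Its signal was dim, from -5.00 to -3.28 over the LDM arrays and from -3.48 to -2.79 over the PMM arrays. The 2 tested macrophage markers, which were not called, differed by 0.10 and 0.16. Replicate 1, where the cycle enzymes were highest, was the lowest LDM array for all 6 endothelial, 9 of 10 adipocyte (all but FASN) and both macrophage markers, and the lowest PMM array for 5, 7 and 2 of them. The size of that gap varied among the adipocyte markers. FABP4, a fatty acid carrier of fat cells, read 5.67, 7.55 and 7.63 in LDM and 5.71, 7.72 and 7.71 in PMM. LEP read -2.14, -1.55 and -1.83 in LDM and -2.56, -1.74 and -1.52 in PMM. Between the muscles FABP4 differed by 0.10, unlike the median of -0.48 over the 10 adipocyte markers. By contrast, replicate 1 was the lowest LDM array for 1 of 7 slow fibre and 0 of 8 fast fibre markers, and the lowest PMM array for none of them. The share of all genes that were lowest in replicate 1 was not counted. The part of fibre type, vessels and fat in the differences of the cycle enzymes was not tested.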

How the data were processed

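The authors deposited linear spot intensities from Agilent Feature Extraction 10.5.1.1 (Cy3 channel), background-subtracted and detrended within each array but not normalized between arrays. The deposited value table of the series held the same intensities, within 0.005 units. The study's text refers to earlier work for the array workflow and names the MultiExperiment Viewer for calling genes, without giving the normalization, the test or its threshold. Here control and outlier spots were dropped, replicate spots were averaged per probe, and log2 intensity minus the array's 75th percentile was taken. A probe was tested when flagged above background on each of the 3 arrays of at least 1 muscle, with at least 2 values per muscle, which left 25826 probes and 2893 named genes (brightest named probe each). The comparison of PMM with LDM used limma (version 3.58.1; R 4.3.3), two-sided, with Benjamini-Hochberg adjustment over all probes or all genes and a threshold of 0.05. The scripts were tested on simulated data. Deposited flags for background, saturation and outliers were read as given.

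Names of probes came from RefSeq accessions (2907) and gene numbers (1350) of Sscrofa11.1, used for names only, or by the name in the files (896). The build behind the probe design is not given in the sources used here, so no probe was placed on the genome. The 2 probes labelled FH and 1 gene of the pathway lists are not reported here. The members and gene lists were chosen with earlier results of these data known. Apart from the probes labelled FH, all members were described, and up to 5 genes per pathway list with the largest absolute difference, and the 5 genes most like the members, were named.

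Deviations from the mean of the muscle correlated between arrays of equal replicate number at 0.616, 0.697 and 0.560. All were above the 0.1 set as the limit, so differences were also taken between arrays of equal number. The main fit had no block, and the replicate block was fitted as an alternative. The SEs printed with the differences come from the main fit and do not take the pairing into account. Over the genes of the cycle enzymes they ran from 0.32 (SDHB) to 0.55 (IDH3A), against 0.19 (IDH3A) to 0.21 (MDH1) with the block. The pairing comes from the replicate numbers in the labels. Values with the replicate block are printed where a call depends on it. Where samples are not known to be separate animals, p-values measure only the spread between these arrays. Alternatives were other scalings, background corrections and filters, blocks by replicate or slide, and leaving out each array.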

Additional observations from a re-analysis of the deposited data

How the results depend on the processing

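Over 21 alternatives the median over the 10 genes stayed above 0, and no probe of the cycle enzymes was called in the 20 of them that were run over probes. Leaving out arrays gave 0 to 529 called probes over all, 0 to 132 called genes over all, 0 to 1 of the 10 genes called, and a median of 0.095 to 0.67 over the 10 genes, lowest without PMM replicate 1. That lowest median came from an unbalanced set that kept LDM replicate 1. The comparison called 8 probes over all, against 0 with the 75th percentile over detected probes, without the filter, with the filter on all 6 arrays, with outlier spots kept and with the replicate block under quantile normalization, 1 with normexp, 17 with the replicate block and 300 with slide as a random block. With the replicate block 201 genes were called over all and with slide as a random block 166, and each fit called 1 of the 10 genes, MDH1, where 0 were called without a block. The replicate block changed no call among the members but that of MDH1.

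Among the other genes, leaving out arrays gave 0.073 to 0.58 for IDH2, 0.12 to 0.76 for IDH3B, 0.19 to 0.79 for SDHA, 0.27 to 0.68 for SDHB, 0.21 to 0.66 for SDHD, 0.057 to 0.97 for MDH2 and 0.65 to 1.41 for MDH1. The difference turned below 0 for A_72_P261837 (-0.028) with the median of each array, and for A_72_P352168 and the gene IDH3A (-0.027 each) with normexp. Leaving out arrays, the differences ranged over 0 for these: CS and A_72_P072591 (-0.11 to 0.51 each), A_72_P226122 (-0.26 to 0.64), A_72_P436629 (-0.26 to 0.62), A_72_P261837 (-0.20 to 0.38), A_72_P116831 (-0.032 to 0.66), IDH3A and A_72_P352168 (-0.37 to 0.57 each), A_72_P396543 (-0.39 to 0.68), A_72_P155876 (-0.041 to 0.74), SUCLG1 and A_72_P035951 (-0.069 to 0.35 each) and A_72_P080396 (-0.17 to 1.06). The cause was not tested beyond the arrays left out. All 23 tested probes of the cycle enzymes were above the background on all 3 LDM arrays, and the 3 arrays per muscle limit the precision.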
